A study of Rattus norvegicus with 2 samples.

Results

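Mast cell genes were examined in cervical lymph nodes of male Sprague-Dawley rats aged 10 to 12 weeks, comparing a control (C) array with an array from rats under restraint stress. The 10 genes were Cpa3, Kit, Cma1, Mcpt2, Tpsb2, Tpsab1, Fcer1a, Ms4a2, Hdc, and Hpgds. Their probes were taken by the gene name that the scanner files give each probe, with no measured value in the rule. The 10 genes themselves were listed with earlier results of these data known. They carried 14 of the 45598 probes on the array and made up 10 of its 36174 gene names, 4 of them with 2 probes and 6 with 1 probe. Each group was represented by 1 array, labeled with Cy3 and read in 1 color, so the differences have no replicate check and none was tested. The labels state that the second animal group was under restraint without giving its duration, and the array is called RS30 here because the paper's microarray comparison is of 30 min of restraint with C. In that model the rats were fastened on their backs to a board, and the nodes were taken after halothane anesthesia and a pentobarbital overdose. How many rats contributed RNA to each array is not given in the sources used here.

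Mast cells are granulated sentinel cells of connective tissue and mucosa, and in lymph nodes they lie mainly in the capsule, the medulla and around the sinuses. Their growth and survival depend on the receptor KIT, and antigen bound to IgE on the high-affinity receptor Fc epsilon RI makes them release granules filled with histamine and proteases, followed by newly made prostaglandin D2 and leukotrienes. Granule release does not require new transcription. In whole-tissue RNA, a change in the number of mast cells and a change in the RNA of each cell cannot be told apart.

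The probes are 60-base oligonucleotides designed against single transcripts, and the ones shown are those on which the results turn: 3 granule proteases, both probes of the histamine-forming enzyme, whose differences were unequal, and 1 probe of the prostaglandin D2 synthase, which was the member farthest below C. They are written 5′ to 3′ in lower case, with the bases taken from the scanner files. The probe of Hdc near the end of its transcript is shown as a stretch of 30 bases, with the hexamer AATAAA, a polyadenylation signal, in capitals.
Cpa3: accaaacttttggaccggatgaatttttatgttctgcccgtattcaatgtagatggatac
Mcpt2: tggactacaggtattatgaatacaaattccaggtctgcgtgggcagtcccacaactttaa
Tpsb2: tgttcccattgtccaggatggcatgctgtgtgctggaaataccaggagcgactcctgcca
Hdc, upstream probe: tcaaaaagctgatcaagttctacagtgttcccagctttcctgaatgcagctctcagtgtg
Hdc, downstream probe: aaaaaacaacctagaAATAAAttgtgccta
Hpgds: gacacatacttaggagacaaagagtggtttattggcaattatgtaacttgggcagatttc

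Positions are those printed beside each probe in the files, and rn4 is the build named in their header but not next to the positions. The probe of Cpa3 lies at chr2:105385518-105385577 on the reverse strand. The probe of Mcpt2 lies at chr15:34557829-34557888 on the forward strand, 475 kb from that of Cma1, and the probes of Tpsb2 (chr10:14614370-14614429, forward strand) and Tpsab1 (chr10:14591591-14591650, reverse strand) are 22.7 kb apart. Both Hdc probes lie on the reverse strand, the upstream one at chr3:114119663-114119722 and the downstream one at chr3:114119325-114119384, with starts 338 bases apart in the transcript. The Hpgds probe spans chr4:94611968-94615159 on the reverse strand, 3192 bases for a probe of 60, so that its sequence joins more than 1 block of the genome. The hexamer AATAAA, searched on the strand of the probe, was present in 5 of the 14 member probes and in 9.04% of all probes. The longest run of bases that a member probe shared with a probe of another gene, on either strand, was between 13 and 17 bases. All 10 names matched a RefSeq gene of the GRCr8 assembly through their accessions, and 9 carried the same symbol there. The accession that the array names Mcpt2 is listed as Mcpt1 in that table, with rMCP-2 among its synonyms.

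The scanner software marked 24946 probes (54.7%) in C and 25033 (54.9%) in RS30 as well above background, which left 21096 genes with their brighter probe above background on at least 1 array. Signals were put on a log2 scale, the 75th percentile of each array was subtracted, and 2-fold was the threshold for a change. Of all 21096 genes, 730 (3.46%) were higher and 903 (4.28%) were lower in RS30 by 2-fold or more, together 7.74%. The median gene differed by 0.02 on the log2 scale. The error given with a difference combines the errors that the scanner software assigns to the spots of both arrays, and it does not include the spread between rats.

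All 10 mast cell genes were well above background on both arrays, and 0 of 10 passed 2-fold in either direction. Of them, 7 were above C and 3 below, with Cma1 and Tpsb2 changing sides under some scalings or background corrections. The members had a median log2 difference of 0.15, and the largest difference was 1.61-fold. Of the 14 probes, 13 were well above background on both arrays and 1 on the C array only. When the 21096 genes were divided into quartiles by mean signal over both arrays, 1 member lay in the dimmest quartile, 4 in the second, 5 in the third, and 0 in the brightest. In these quartiles, 13.8%, 8.04%, 5.31%, and 3.77% of genes passed 2-fold. Genes of fat, connective tissue and erythrocytes, most of which were higher in RS30, are given with their values after the mast cell genes.

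**Figure D1:**
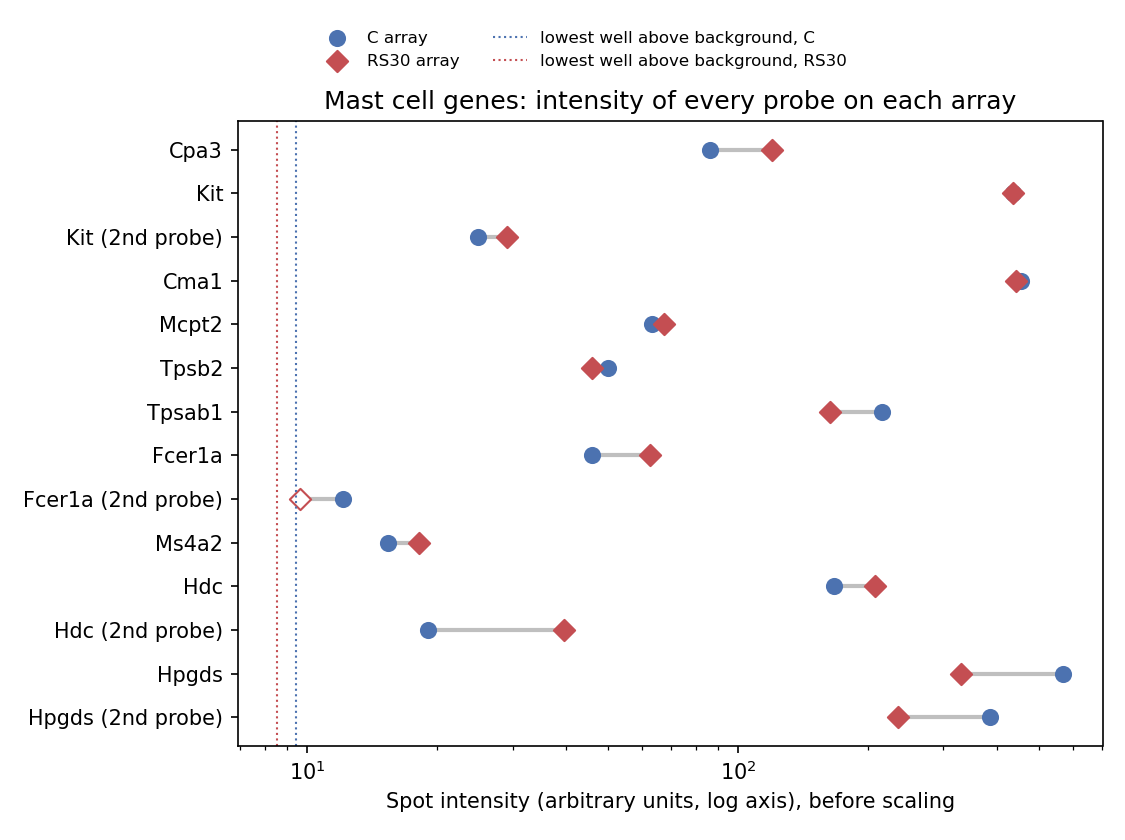
Intensity of each of the 14 probes of the 10 mast cell genes, in arbitrary units on a log axis and before scaling, for the C array (circles) and the RS30 array (diamonds), 1 array each. Open symbols were not well above background, dotted lines mark the lowest signal so marked on each array, and the circle of Kit lies under its diamond. The only open symbol is that of the 2nd probe of Fcer1a, at 9.62.

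All 5 granule proteases were under 2-fold. Cpa3, which encodes the carboxypeptidase of the mast cell granule, read 86.1 in C and 119.8 in RS30. After scaling, this was 1.49-fold higher in RS30 (log2 difference 0.58, spot error 0.21). Among the proteases of the list, Cpa3 was the one farthest from C and the only one whose difference lay outside the 95% range of the spot error.

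Cma1 encodes a chymase, a chymotrypsin-like serine protease. Its intensity was 455 in C and 443 in RS30, with a log2 difference of 0.06 (spot error 0.20) that was -0.04 in the lowest of the scaling alternatives. Mcpt2 encodes the related protease typical of rat mucosal mast cells, and its probe was printed in 2 spots. The C spots read 61.8 and 64.4 and the RS30 spots 65.9 and 68.9. The spots of the arrays did not overlap, and the log2 difference was 0.19 (spot error 0.15). Both chymotrypsin-like members were thus near C, Mcpt2 at 1.14-fold and Cma1 at 1.04-fold.

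Tpsb2 and Tpsab1 encode tryptases, the trypsin-like proteases stored with heparin in connective tissue mast cells. Tpsb2 had intensities of 49.9 in C and 45.9 in RS30 (log2 difference -0.02, spot error 0.23). Tpsab1 had intensities of 215 in C and 164 in RS30, or 1.23-fold lower in RS30 (log2 difference -0.30, spot error 0.21). Both tryptases were within the 95% range of the spot error, and Tpsb2 lay just above 0 with the median shift or normexp background correction.

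The receptor genes were level with C or above it on their brighter probes. Kit, which encodes the receptor for stem cell factor, had intensities of 435 in C and 436 in RS30 on its brighter probe (log2 difference 0.10, spot error 0.20). Its second probe had intensities of 25.0 and 29.1 (log2 difference 0.32, spot error 0.26). Both probes of Kit were on the same side of C and within the 95% range of their spot error.

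Fcer1a encodes the chain of Fc epsilon RI that binds IgE. The brighter probe read 45.8 in C and 62.7 in RS30, or 1.46-fold higher (log2 difference 0.55, spot error 0.22). The second probe, designed on a predicted transcript variant, read 12.1 in C and 9.62 in RS30, where it was not well above background (log2 difference -0.24, spot error 0.47). The probes of Fcer1a thus pointed in opposite directions, and the dimmer one did not resolve a difference. Ms4a2, which encodes the signal-amplifying beta chain of the same receptor, read 15.4 in C and 18.2 in RS30 (log2 difference 0.34, spot error 0.31).

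The mediator enzymes held the member farthest from C in each direction when single probes were counted. Hdc encodes histidine decarboxylase, the enzyme that forms histamine. Its brighter, downstream probe read 167 in C and 208 in RS30, or 1.33-fold higher (log2 difference 0.41, spot error 0.21). Its dimmer, upstream probe read 19.1 and 39.5, or 2.22-fold higher (log2 difference 1.15, spot error 0.27). Both probes were higher in RS30, but they differed from each other by 0.74 on the log2 scale. Among the 2596 genes with 2 probes that both stood above background in C and RS30, the median gap between probes was 0.15, and 140 (5.39%) had a gap as large as that of Hdc. The call for Hdc thus depended on the probe: it was under 2-fold on the brighter probe and past 2-fold on the dimmer one.

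Hpgds encodes the hematopoietic prostaglandin D synthase of mast cells, which is also made by other cells such as macrophages. Its brighter probe read 569 in C and 330.2 in RS30, or 1.61-fold lower in RS30 (log2 difference -0.69, spot error 0.20). The second probe read 385 and 235, or 1.53-fold lower (log2 difference -0.61, spot error 0.20). The gap between the 2 probes was 0.07. Hpgds was the member farthest below C, and 6.94% of all 21096 genes were as low or lower. On the same arrays, 0 of 8 macrophage genes passed 2-fold, with a median log2 difference of 0.01 and a range from -0.34 for Csf1r to 0.45 for Mrc1, and the part of macrophages in the Hpgds value was not tested.

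**Figure D2:**
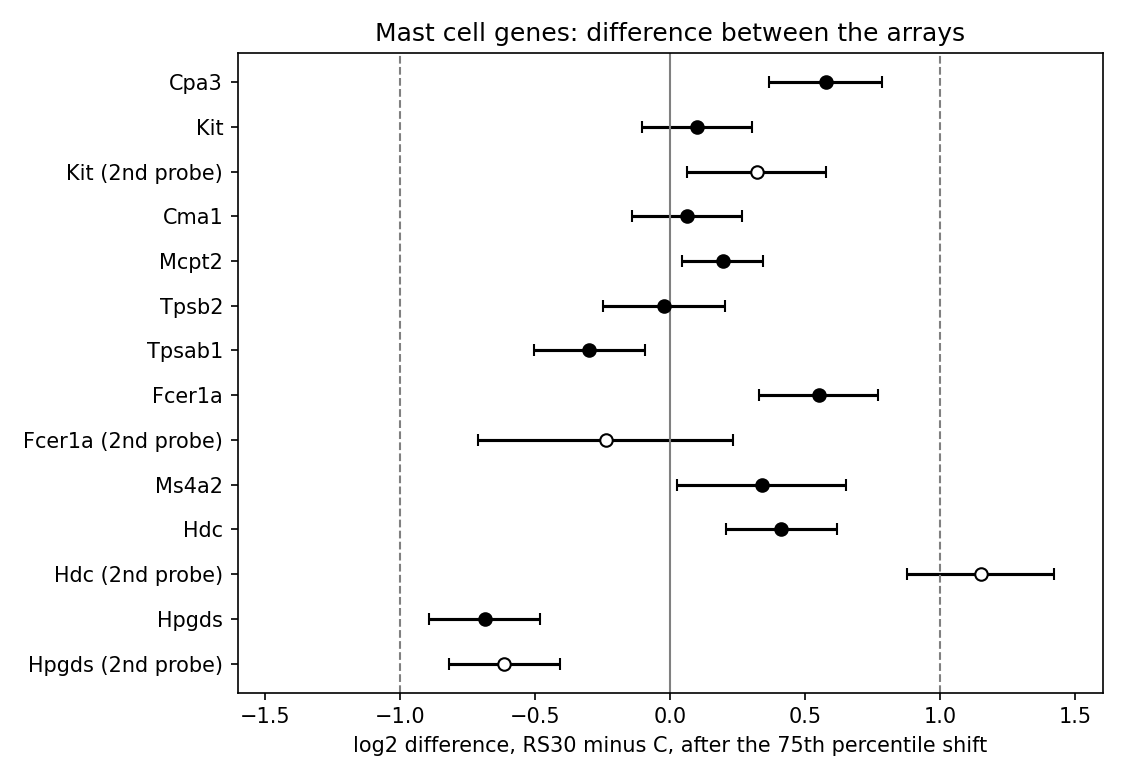
Log2 difference, RS30 minus C, of each probe of the 10 mast cell genes after the 75th percentile shift, with filled circles for the brighter probe of a gene and open circles for the second probe. Bars show the combined spot error of both arrays, which leaves out the spread between rats, and dashed lines mark 2-fold. Only the second probe of Hdc, at 1.15, lies past a dashed line.

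By the spot error alone, 4 of the 10 genes lay outside its 95% range, namely Cpa3, Fcer1a and Hdc above C and Hpgds below it. The share of all 21096 genes outside their own range is not given here. The count of members is therefore not read as a result about mast cell genes. Differences of this size were common on these arrays. As large a difference in the same direction was shown by 8.23% of the 21096 genes for Cpa3, by 8.83% for Fcer1a, and by 12.7% for Hdc. The other 6 genes, Kit, Cma1, Mcpt2, Tpsb2, Tpsab1 and Ms4a2, lay within the 95% range of the spot error.

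Other genes of granule proteases, receptors and mediators related to those of mast cells were taken from 7 lists with 95 genes. The lists were written with earlier results of these data known. Of these, 92 were on the array and 71 could be measured on 1 array or both. Of the 71, 4 (5.63%) were higher by 2-fold or more and 7 (9.86%) were lower, with a median log2 difference of 0.05. Among all genes the shares were 3.46% and 4.28%. The comparison only describes the lists, since they were not chosen blind to the values. With the mean over all probes of a gene in place of the brighter one, 6 were higher and 5 lower. That mean also counts probes not well above background, so the counts depended on the probe rule.

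The other granule proteases held most of the lower genes. Of 16 on the array, 8 were above background on at least 1 array, 4 of them lower and 1 higher by 2-fold or more, with a median log2 difference of -0.65, which counts 3 genes at their lower bound and ran from -0.27 with normexp to -1.26 with plain ratios of signals. Without Mcpt8, Mcpt9 and Mcpt10 the median of the other 5 was 0.28, with 1 higher and 1 lower. The genes left out were among the 4 lower ones, so that leaving them out raised the median by construction. Mcpt10, a protease of the chymase locus, had spots from 339 to 367 in C and from 96.5 to 116.6 in RS30, or 3.05-fold lower (log2 difference -1.61, spot error 0.07). Its other probe gave -1.58. Mcpt9, of the same locus, had spots from 364 to 422 in C and from 131 to 159 in RS30, or 2.55-fold lower (log2 difference -1.35, spot error 0.06), and its other probe gave -1.02. These were the proteases measured in the most spots, and the spots of the arrays did not overlap for either probe of either gene.

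Mcpt8, a protease used in mice as a marker of basophils, read 675 in C and 282 in RS30, or 2.24-fold lower, with log2 differences of -1.16 on this probe and -1.17 on a dimmer one that was not well above background in RS30. Mcpt8l2 was at least 2.93-fold lower, since it read 26.8 in C and was not well above background in RS30. Mcpt1l3 was the exception, at least 4.74-fold higher from a single spot that read 2.29 in C, not well above background, and 41.9 in RS30, with a spot error of 1.46 on the log2 scale. Mcpt1l1, which is named by its likeness to mast cell protease 1, had log2 differences of 0.28 and 0.36 on its 2 probes. None of the 5 member proteases showed a difference of the size seen for Mcpt8, Mcpt9 and Mcpt10, although whether the 2 sets differ could not be tested with 1 array per group. On neither array did Mcpt1 or Mcpt4, as the files name them, stand well above background. With normexp background correction, Mcpt8 at -0.99, Mcpt8l2 at -0.40 and Mcpt1l3 at 0.76 were no longer past 2-fold, whereas Mcpt9 at -1.07 and Mcpt10 at -1.21 were.

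**Figure D3:**
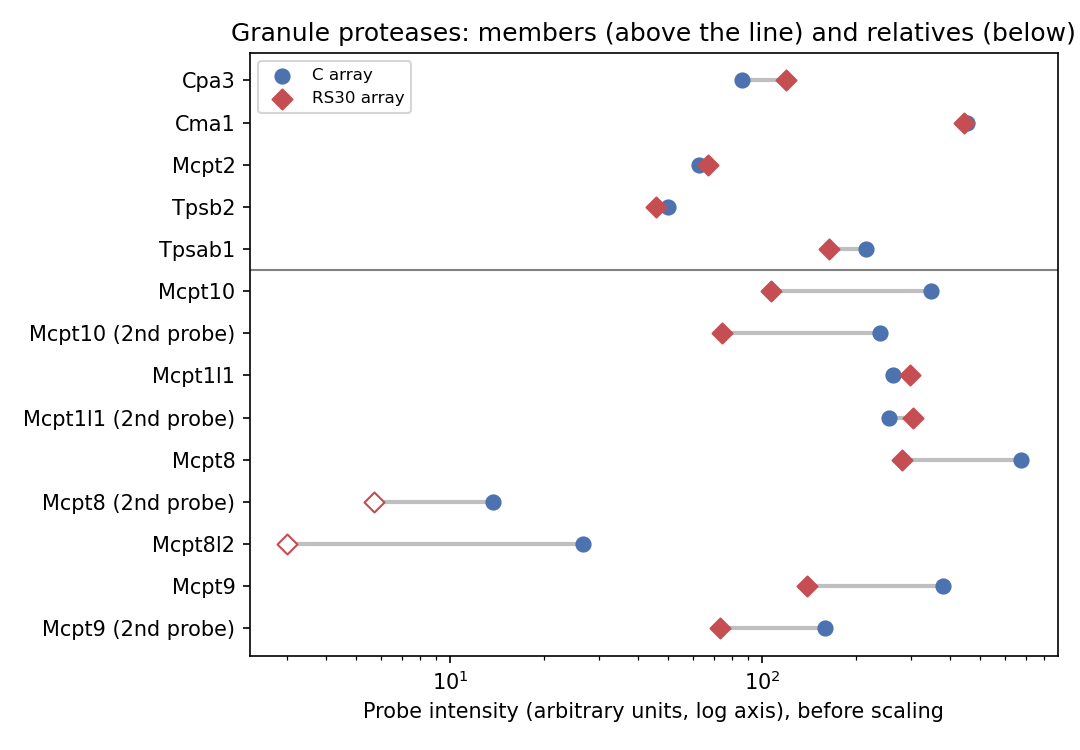
Probe intensity, in arbitrary units on a log axis and before scaling, of the 5 granule proteases among the members (above the line) and of 5 related proteases (below it), for the C array (circles) and the RS30 array (diamonds). Open symbols were not well above background. The probes of Mcpt8, Mcpt8l2, Mcpt9 and Mcpt10 are lower in RS30. Those of Mcpt1l1 and of the members stay within 2-fold of C, with Cpa3 the farthest member at 86.1 in C and 119.8 in RS30.

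The receptor signaling lists held 0 genes past 2-fold. Of the 9 measured genes of the KIT list, 2 were the farthest on their brighter probe among those above background on both arrays. These were Sh2b3, an adaptor that restrains KIT signaling, at 0.40 and Cbl, a ubiquitin ligase for activated receptors, at -0.34. The second probe of Cbl, above background on both arrays, was at 0.03. The KIT ligand Kitlg was at 0.20. Of the 14 genes of Fc epsilon RI signaling, the farthest were the kinase Syk at 0.53 and Fcer2 at -0.62. Fcer2 encodes the low-affinity IgE receptor CD23, which is abundant on B cells, and its second probe gave -0.73. Fcer1g, the gamma chain that completes the high-affinity receptor with the products of Fcer1a and Ms4a2 and is shared with other receptors, was at 0.00. Gata1, a transcription factor of mast cells and erythroid cells, read 2.38 in C, not well above background, and 10.2 in RS30, which gives a lower bound of 1.16-fold. On neither array was Gata2, a transcription factor of mast cell development, well above background.

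Among genes of histamine handling, Aoc1, which encodes the histamine-degrading diamine oxidase, was at least 2.35-fold lower, from 21.5 in C to a signal not well above background in RS30. Slc18a2, which encodes the transporter that loads histamine into granules, was at 0.27. The other 3 measured genes of that list, which encode histamine receptors, were under 2-fold. Hrh2 was the farthest of them at -0.84 (spot error 0.23), from 60.7 in C to 31.6 in RS30, with Hrh3 at -0.05 and Hrh4 at 0.32. In the eicosanoid list, Ptgs2, the inducible cyclooxygenase upstream of Hpgds, was 12.7-fold higher, from 14.6 to 173, a log2 difference of 3.67 that was 1.72 with normexp and 2.31 with the mean over its probes, whereas the other 9 measured genes were under 2-fold. Ptgs2 is made by many cell types, so that its rise next to the lower Hpgds was measured in tissue and not in mast cells.

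Among surface and granule markers, 1 of 13 passed 2-fold. This was Tph1, the serotonin-forming enzyme, at -2.46 on its brighter probe and 0.63 on the other, and the brighter probe holds an alternating run of A and G, at least 6 bases long. Without probes that hold such a run, 498 rather than 903 genes of the whole array were lower. Il1rl1, which encodes the IL-33 receptor of mast cells and other cells, was at 0.79 on its brighter probe, while a dimmer probe read 3.86 in C, not well above background, and 51.1 in RS30. Among cytokine genes that mast cells can make or respond to, Il6 was 10.6-fold higher and Ccl2, on a probe that also holds such a run, 13.3-fold higher, and Il4 was at least 2.16-fold lower from an intensity of 19.7 in C. The signal of Il6 in C, 9.99, was close to the lowest signal well above background, 9.45, and its log2 difference of 3.40 was 1.34 with normexp. With normexp, Il4 at -0.24 and Aoc1 at -0.29 were no longer past 2-fold.

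**Figure D4:**
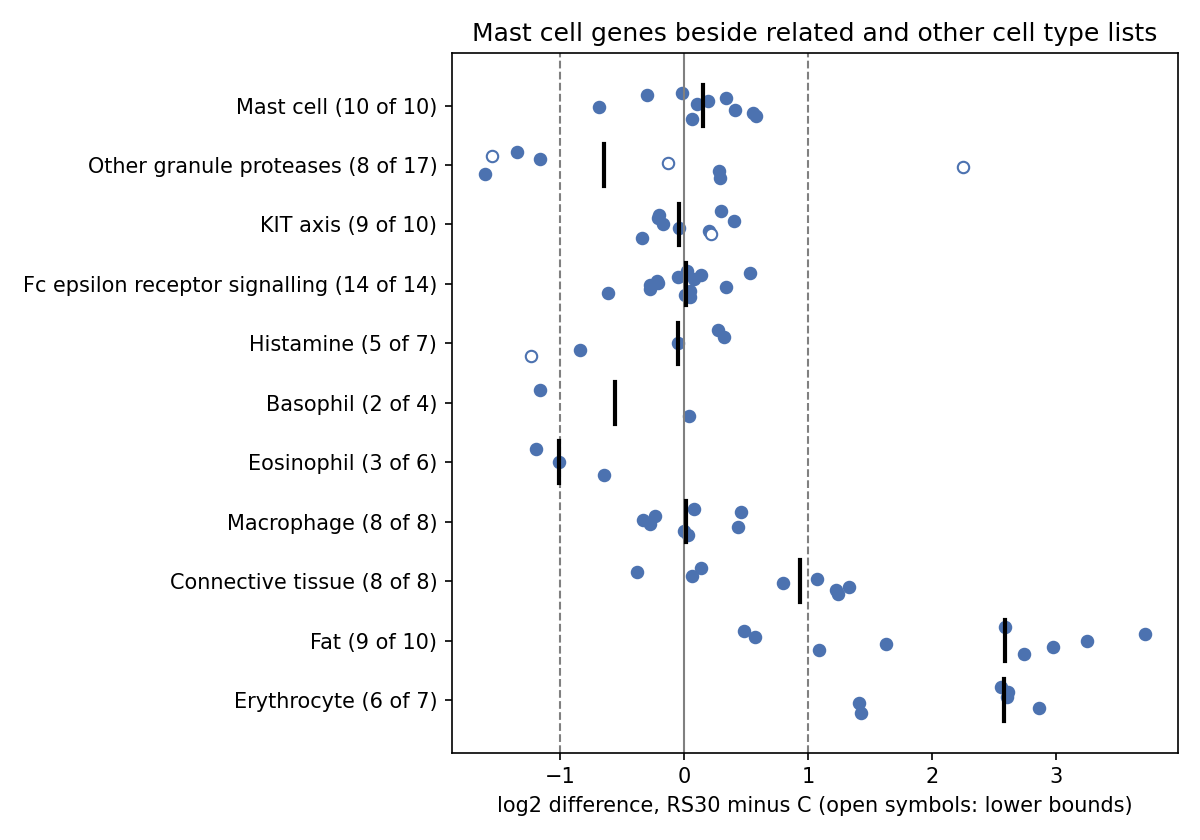
Log2 difference, RS30 minus C, of the genes of each list by their brighter probe (circles), with black bars for list medians, dashed lines at 2-fold, and the number of genes measured out of those listed. Open circles are lower bounds for genes well above background on 1 array only. The 10 mast cell genes lie between -0.69 and 0.58, while the fat and erythrocyte medians are both at 2.58.

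Markers of other cells were compared on the same arrays. Fat genes were higher, 7 of 9 measured past 2-fold and a summed scaled signal of 37.9 in C and 106.9 in RS30. Connective tissue genes, which mark the compartment in which many mast cells lie, were higher by 2-fold or more in 4 of 8. Their median log2 difference was 0.93, with sums of 70.7 and 155. The genes past 2-fold were Col1a1, Col1a2, Col3a1 and Fbln1, while Dcn was at 0.79, Thy1 at 0.13, Lum at 0.06 and Pdgfra at -0.39. All 6 measured erythrocyte genes were higher, with sums of 52.9 and 317. With normexp, the fat median of 2.58 was 1.48 and the erythrocyte median of 2.58 was 1.90, with 7 of 9 and 4 of 6 genes past 2-fold. The connective tissue median was 0.73 with normexp, with 3 of 8 genes past 2-fold. With the mean over probes, the fat median was 1.90. The 7 measured T cell genes had a median of -0.16 and the 7 measured B cell genes one of -0.05, all well above background on both arrays. Of the T cell genes, 6 were below C and 1 above, from -0.97 for Cd5 to 0.01 for Cd4. With quantile normalization or without normalization, 1 T cell gene was lower by 2-fold or more. Of the B cell genes, 4 were below C and 3 above, from -0.62 to 0.13. Of 5 measured neutrophil genes, S100a8 was 15.9-fold and S100a9 13.7-fold higher, and the list median was 0.11. The other 3 were under 2-fold, with Ltf at -0.97, Mmp8 at -0.41 and Csf3r at 0.11. Without normalization, Ltf was past 2-fold lower, at -1.07. Mpo, Elane and Camp stood well above background on neither array. With normexp, S100a8 was at 1.98 and S100a9 at 2.44 on the log2 scale. The dendritic cell gene Clec10a was 3.50-fold higher and the endothelial gene Emcn 2.25-fold higher, each the only gene of its list past 2-fold. Emcn was dim, with a single spot that read 20.6 in C and 43.2 in RS30. With normexp, 0 endothelial genes and 1 dendritic cell gene were higher by 2-fold or more. The part of these cells and tissues in the values of the mast cell genes was not tested.

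Of the eosinophil list, 3 of 6 genes were measured and 2 were lower by 2-fold or more. Prg2, which encodes the major basic protein of eosinophil granules, read 409 in C and 166 in RS30, and Ear11 read 79.8 and 36.9. Ccr3, the eotaxin receptor, had a log2 difference of -0.65, and the defining gene Epx stood above background on neither. With normexp, Prg2 at -0.99 and Ear11 at -0.42 were no longer past 2-fold, which left 0 of 3. Of the basophil list, Il3ra was at 0.04 and Prss34 stood above background on neither array. That left Mcpt8, also counted among the other granule proteases, as the only gene of this list past 2-fold. The list did not hold Mcpt8l2, Mcpt9 or Mcpt10, and which cells made their RNA was not tested.

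**Figure D5:**
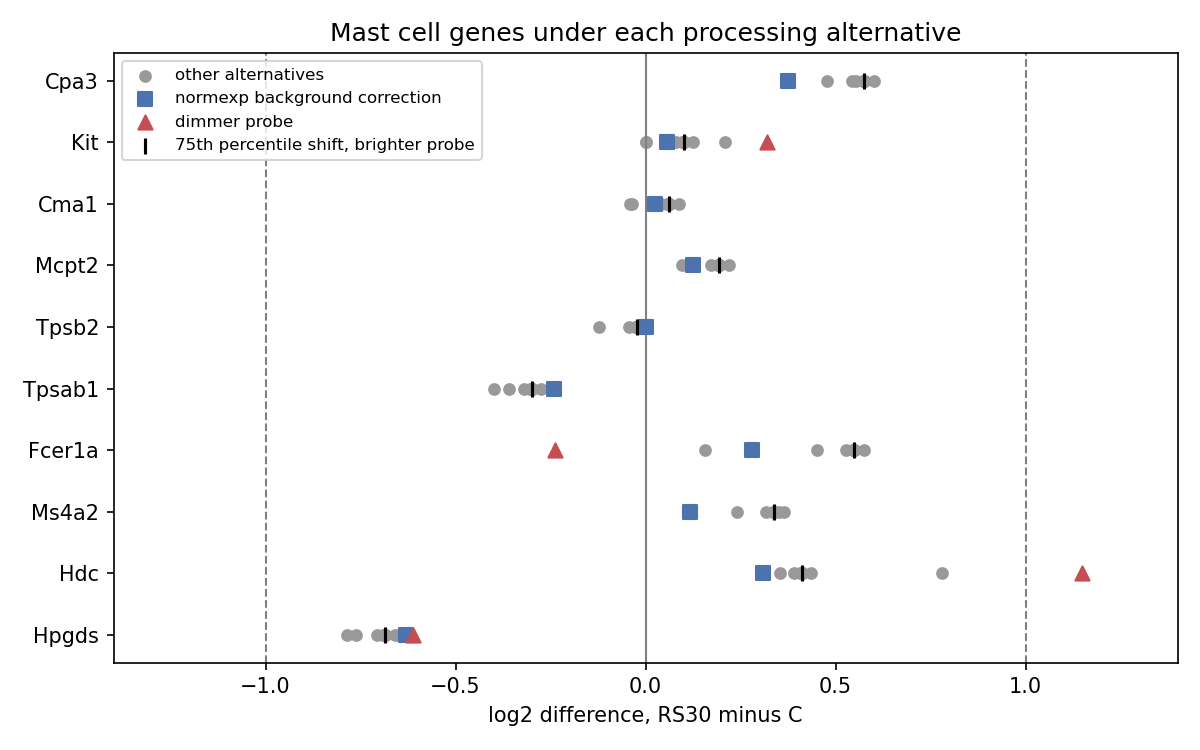
Log2 difference, RS30 minus C, of each of the 10 mast cell genes under each processing alternative, with black ticks for the brighter probe after the 75th percentile shift, squares for normexp background correction, triangles for the dimmer probe of genes with 2 probes, and gray circles for the other alternatives. Dashed lines mark 2-fold. Only the dimmer probe of Hdc, at 1.15, lies past 2-fold, and that of Fcer1a, at -0.24, lies opposite to its brighter probe.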

How the data were processed

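Cy3-labeled RNA of 1 C and 1 restraint-stressed sample was hybridized by the authors to SurePrint G3 Rat GE 8X60K arrays on 1 slide. The deposited intensity values came from Feature Extraction 11.5.1.1, with background subtraction and detrending within each array and no scaling between arrays. A second table deposited by the authors holds log2 values with no scale given; its values for all 45598 probes were within 0.1 of those computed here. The flags of the deposited files (well above background, outlier) are 0 or 1 per spot.

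Control spots and outlier spots (489 and 660) were left out, repeated spots were averaged as log2 values, and each array's 75th percentile (intensities of 189 and 176) was subtracted. A probe was well above background when more than 50% of its spots were so marked. A gene was represented by its brighter probe. With 1 array above background, a fold is a lower bound set against whichever was higher on the other array, its own value or the lowest value well above background (9.45 in C, 8.52 in RS30). No p-value was computed, and the number of arrays limits the precision. The members and lists were chosen with earlier results of these data known. All members and their probes are named; of each related list, genes past 2-fold are named, or else the largest rise and fall, and Kitlg, Fcer1g, Slc18a2, Gata1, Gata2, Il1rl1, Mcpt1, Mcpt4 and Mcpt1l1 were added for their roles after their values were seen. Likeness of pattern over samples was not computed with 2 arrays. In 12 further settings the scaling, background correction (limma normexp, offset 50), source table, probe rule, outlier spots, bound, background filter or use of the spot error was changed, and 2 more were chosen after seeing the data. Scripts were tested on simulated data. R 4.3.3, limma 3.58.1, Python 3.11.15, numpy 2.4.6, pandas 2.3.3 and matplotlib 3.10.9 were used.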

Additional observations from a re-analysis of the deposited data

How the results depend on the processing

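No paired analysis was possible because there was 1 array per group, which also leaves no replicate to leave out. Under the 12 other settings of scaling, background, filter and probe rule, 0 of 10 mast cell genes passed 2-fold. With the dimmer probe of the genes with 2 probes, an alternative chosen after seeing the data, 1 (Hdc) did, and Fcer1a was at -0.24. The members' median stayed between 0.049, without normalization, and 0.17. Cma1 was below 0 without normalization and with quantile normalization, and Tpsb2 above 0 with the median shift and normexp; the median over all genes moved by under 0.1 with each scaling.

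All genes past 2-fold numbered 234 higher and 378 lower with normexp, 2031 and 2148 without a background filter, 601 lower with genes above background on both arrays, and 498 lower with alternating A and G probes left out, also chosen after seeing the data. Related genes numbered 3 lower with normexp and 4 lower with genes above background on both arrays, 7 higher with the ratio of signals, and 7 higher and 12 lower without a filter. Filters change by construction how many genes qualify; otherwise the cause was not tested. Tph1 turned to 0.63 with alternating probes left out. Mcpt8 was at -0.99 with normexp and -0.88 with the mean over probes, Mcpt9 and Mcpt10 at -1.07 and -1.21 with normexp. Of 512 other values, 452 were classed as the same, 59 as moved and 1 as reversed. For single genes the limit was the spot error, which the list medians among these values do not have. One array per group and, for Ms4a2 and the dimmer Fcer1a probe, signal near background limit every difference.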
